A study of Homo sapiens with 6 samples.

Results

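The genes described here serve glycolysis, lactate handling and the control of pyruvate dehydrogenase. They were chosen by symbol from a list of glucose transporters, glycolytic enzymes, lactate dehydrogenases and transporters, and kinases and phosphatases of the pyruvate dehydrogenase complex. All 32 listed genes were rows of the deposited table, out of 23368 genes in all. Pyruvate kinase M is written there under its older symbol PKM2, and that row does not separate the splice forms of the gene. RNA-seq had been made from 6 libraries of MDA-MB231, an established human breast cancer line, grown with fetal calf serum. The cells carried no labelled genetic change, and every group had been transfected with siRNA by the same lipid reagent. The control libraries (siControl, n = 2) had received a control siRNA, and the others had received siL1 (n = 2) or siL2 (n = 2), different siRNAs against LSD1, the histone demethylase encoded by KDM1A. The labels name neither the siRNA sequences nor the time after transfection, and do not say whether the replicates were separate cultures, so a p-value here reflects nothing more than how far these samples scatter.

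Glycolysis breaks glucose down to pyruvate in the cytosol, starting with uptake through GLUT transporters and trapping by hexokinase. Phosphofructokinase is its main point of control, and the PFKFB enzymes set the level of the fructose bisphosphate that activates it. Pyruvate is then either reduced to lactate and exported, the route that many cancer cells favour even with oxygen present, or oxidised by the mitochondrial pyruvate dehydrogenase complex, which the PDK kinases switch off and the PDP phosphatases switch on.

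Library totals ranged from 22047738 to 26765079 counts over 15624 to 16065 genes with any count. A value of 3 counts, the upper limit that a count of 0 allows, stood for 0.112 to 0.136 CPM (counts scaled to a common library total). KDM1A stood at 158 and 165 CPM in the control pair, 27.7 and 28.1 in the siL1 pair, and 17.4 and 18.1 in the siL2 pair. All 12 genes listed for a mesenchymal breast cancer line were present, with a summed level of 10617 to 11665 CPM. That list includes the keratins KRT8 and KRT18, at 188 to 268 CPM over the libraries, which are not mesenchymal markers. Of the luminal markers ESR1, PGR and KRT19 stayed below 1 CPM in every library. The luminal markers GATA3 (2.54 to 5.40 CPM), FOXA1 (2.19 to 5.53 CPM) and ERBB3 (1.74 to 3.87 CPM) lay above it in every library, GATA3 being higher and FOXA1 lower with each siRNA. The line is known as negative for the oestrogen and progesterone receptors that ESR1 and PGR encode. Of 12 blood cell markers 11 stayed below 1 CPM in every library (CD68 being the other), and so did 6 of 6 muscle and liver markers. Of 11 fibroblast and endothelial markers 7 stayed below 1 CPM and 3 (COL1A2, DCN and LUM) were at 0, but the summed level of the list was 9.27 to 9.66 CPM in the control, 24.3 to 25.2 CPM with siL1 and 14.9 to 16.8 CPM with siL2. Its part in the members' results was not tested.

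With siL1 most of the pathway was higher than in the control, whereas with siL2 the members went in both directions. Changes are log2 fold changes from edgeR's quasi-likelihood test, and a gene is said to have risen or fallen where its Benjamini-Hochberg adjusted p over 13322 genes was below 0.05. All 32 members passed the filter on low counts. The libraries of the groups compared did not overlap for 9949 tested genes with siL1, 9711 with siL2 and 9763 between the siRNAs. Among the 32 members the numbers were 27, 25 and 28, so separation of 2 libraries from 2 was common throughout. With siL1, 21 members (65.6%) rose and 2 (6.25%) fell, where 24.7% of all genes tested rose and 25.7% fell. The median change was 0.26 over the members and -0.014 over all genes tested. With siL2, 8 members (25%) rose and 5 (15.6%) fell, beside 22.6% and 23.3% of all genes, and the medians were -0.011 and -0.0036. The share that rose with siL2 was thus close to that of all genes. PFKFB4 with siL1 was the single member that changed at least 2-fold. In bulk RNA, fewer cells with a transcript and less of it per cell cannot be told apart.

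The siRNA comparisons share the control libraries, so their calls are set side by side without a test of overlap. SLC2A3, HK1, PFKFB4, ALDOC, PGK1, ENO2 and PDP1 rose with each siRNA, and PFKM fell with each. A further 13 members rose with siL1 and did not pass the test with siL2, and PFKFB2 did the reverse. LDHA rose with siL1 and fell with siL2. HK2, GPI and LDHB fell with siL2 and did not pass with siL1, PDHA1 fell with siL1 and did not pass with siL2, and PGAM1, ENO3, SLC16A1, PDK2 and PDK4 passed in neither comparison. The smaller counts changed when single libraries were left out, a step that also leaves fewer libraries for the test. The count that rose with siL2 was 5 without control replicate 1, 5 without control replicate 2 and 4 without siL2 replicate 1, and also 4 with DESeq2's Wald test. PDHA1 lost its call with siL1 whichever of the 6 libraries was left out, which left PFKM as the only member that fell there.

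**Figure D1:**
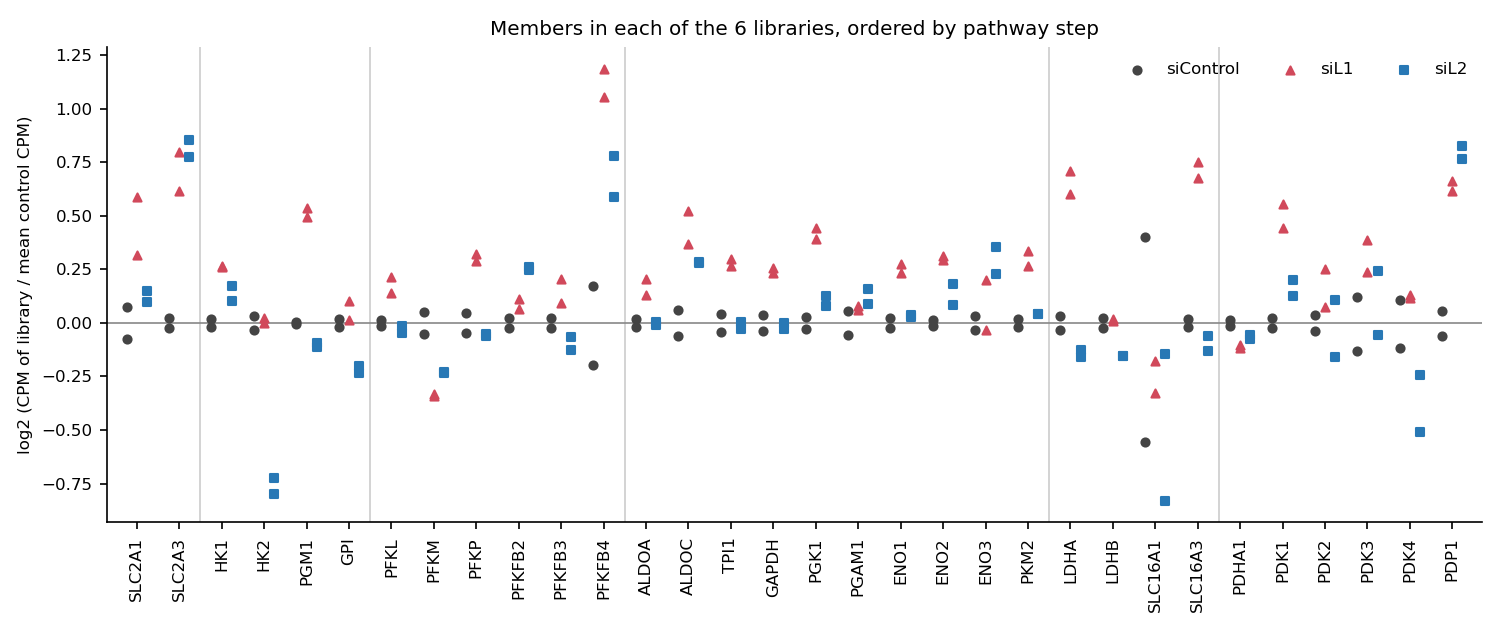
Level of each member in each of the 6 libraries as log2 of its CPM over the mean control CPM (vertical axis), with members ordered by pathway step along the horizontal axis and grey lines between steps; black circles are siControl, red triangles siL1 and blue squares siL2, 1 point per library. Most red triangles lie above the control points, the HK2 points with siL2 lie far below its other points, and SLC16A1, at 0.487 to 1.14 CPM, has the widest scatter.

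Promoter sequences are printed for LDHA, which changed in opposite directions with the siRNAs, for PGK1, which rose with each, for HK2, which fell with siL2, and for PFKFB4, which had the largest change. Each run holds the 250 bases before an annotated start, from RefSeq on GRCh38.p14, printed along the gene's strand. The LDHA stretch is chr11:18394313-18394562 (+ strand), that of PGK1 chrX:78103998-78104247 (+ strand), that of HK2 chr2:74833877-74834126 (+ strand) and that of PFKFB4 chr3:48556804-48557053 (- strand). LDHA and HK2 have 2 annotated windows each, of which the one listed first is shown. Capitals mark ACGTG and GCGTG on either strand (CACGT is ACGTG read from the other strand), the core letters of the hypoxia response element. The E-box CACGTG, bound by MYC and by the ChREBP family, contains ACGTG and is capitalised with it.
LDHA: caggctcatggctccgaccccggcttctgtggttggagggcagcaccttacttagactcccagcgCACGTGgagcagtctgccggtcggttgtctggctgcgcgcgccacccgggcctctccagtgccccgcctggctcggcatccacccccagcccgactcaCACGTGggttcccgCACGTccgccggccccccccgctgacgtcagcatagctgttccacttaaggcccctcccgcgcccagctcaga
PGK1: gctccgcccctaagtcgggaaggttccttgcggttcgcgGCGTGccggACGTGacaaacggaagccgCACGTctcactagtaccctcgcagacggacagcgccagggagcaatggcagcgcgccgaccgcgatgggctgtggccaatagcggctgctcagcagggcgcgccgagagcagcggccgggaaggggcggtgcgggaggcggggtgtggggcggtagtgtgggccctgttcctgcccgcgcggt
HK2: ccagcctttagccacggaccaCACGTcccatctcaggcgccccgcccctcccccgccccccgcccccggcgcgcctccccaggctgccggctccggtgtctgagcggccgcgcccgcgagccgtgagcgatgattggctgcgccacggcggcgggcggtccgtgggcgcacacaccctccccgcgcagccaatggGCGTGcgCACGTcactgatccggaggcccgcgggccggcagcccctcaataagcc
PFKFB4: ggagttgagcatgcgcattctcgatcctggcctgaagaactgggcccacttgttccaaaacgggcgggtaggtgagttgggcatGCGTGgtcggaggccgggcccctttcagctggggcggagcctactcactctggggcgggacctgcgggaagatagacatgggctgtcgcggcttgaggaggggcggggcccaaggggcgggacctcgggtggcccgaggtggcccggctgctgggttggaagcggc
In LDHA the window held 5 matches to ACGTG counted over both strands, 2 CACGTG palindromes among them giving a match on each. PGK1 held 2 ACGTG and 1 GCGTG within 211 bases of the start, HK2 held 2 and 1 with no CACGTG, and PFKFB4 held 1 GCGTG. The HK2 window not shown held 4 ACGTG, 2 GCGTG and 2 CACGTG, and the LDHA window not shown held 1 GCGTG.

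Promoter windows were found for 28 members, and SLC2A3, PFKFB2, SLC16A1 and PDP1 had none in the table. ACGTG was present in a window of 17 of the 28 members (60.7%) and of 29.2% of 9319 tested genes with a window. Members had more annotated starts each than other genes, and counted per window the shares were 33.9% of 59 and 22.2% of 13753. CACGTG was present for 7 members (25%) and for 11.1% of the tested genes, or 11.9% and 7.98% of windows. GCGTG was present for 60.7% of members and 53.8% of genes, but for 32.2% and 43.4% of windows. ACGTG or GCGTG together were present for 82.1% of members and 65.5% of genes, and for 52.5% and 54.9% of windows. These are counts of letters, not of bound sites. ACGTG occurred among members of each direction: windows of LDHA, HK2 and PFKM, which fell with siL2, and of ALDOC, PGK1 and ENO2, which rose with it, held it.

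Of the glucose transporters among the members, SLC2A1 (GLUT1, the widely expressed basal transporter) had the higher RNA level. SLC2A3 (GLUT3, a high-affinity transporter) rose with each siRNA. SLC2A1 stood at 234 and 259 CPM in the control pair, 307 and 370.4 in the siL1 pair, and 263 and 273 in the siL2 pair. All siRNA libraries lay above the control, by 0.47 with siL1 (SE 0.0735, adjusted p = 1.84e-04), while the difference of 0.12 with siL2 did not pass (95% interval -0.041 to 0.28, adjusted p = 0.209). SLC2A3 stood at 29.8 and 30.8 CPM in the control pair, 46.5 and 52.7 in the siL1 pair, and 51.9 and 54.9 in the siL2 pair. It rose by 0.72 with siL1 (SE 0.0732, adjusted p = 4.95e-06) and by 0.81 with siL2 (SE 0.0724, adjusted p = 1.75e-06). The siRNA groups overlapped each other and did not differ beyond their spread (difference 0.096, adjusted p = 0.274).

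Of the hexokinases, HK1 rose with each siRNA and HK2 fell with siL2. HK1, the constitutive isozyme, stood at 289.6 and 283 CPM in the control pair, 343 and 344 in the siL1 pair, and 322 and 307 in the siL2 pair. It rose by 0.27 with siL1 (adjusted p = 6.53e-05) and by 0.13 with siL2 (adjusted p = 0.0104), and the call with siL2 was lost without control replicate 2 or without siL2 replicate 1. HK2, the inducible isozyme bound to mitochondria in many tumours, stood at 213 and 204 CPM in the control pair, 208 and 211 in the siL1 pair, and 126 and 119 in the siL2 pair. The siL1 libraries lay within the control range, while both siL2 libraries were far below every other library. HK2 differed by 0.016 with siL1 (95% interval -0.075 to 0.11, adjusted p = 0.777). With siL2 it fell by 0.77 (0.588-fold, SE 0.0431, adjusted p = 2.83e-08). It was the largest fall of any member in either comparison with the control.

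Around glucose 6-phosphate, PGM1 rose with siL1 and GPI fell with siL2. PGM1, a phosphoglucomutase that links glucose 6-phosphate with glycogen, stood at 103 and 103 CPM in the control pair, 145 and 149 in the siL1 pair, and 95.4 and 96.7 in the siL2 pair. It rose by 0.52 with siL1 (SE 0.0427, adjusted p = 7.15e-07), and the siL2 libraries, though below both control libraries, did not pass (-0.11, adjusted p = 0.0619). GPI, which converts glucose 6-phosphate to fructose 6-phosphate, stood at 556 and 541 CPM in the control pair, 553 and 588 in the siL1 pair, and 467 and 477 in the siL2 pair. It fell by 0.22 with siL2 (SE 0.0392, adjusted p = 5.14e-04), and the difference with siL1 was 0.063 (adjusted p = 0.204).

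Among the phosphofructokinase 1 subunits, PFKP and PFKL rose with siL1 while PFKM fell with each siRNA. PFKP, the platelet-type subunit, stood at 239 and 224 CPM in the control pair, 289.9 and 284 in the siL1 pair, and 224 and 222 in the siL2 pair. The liver-type PFKL stood at 87.0 and 85.3 CPM, then 94.9 and 99.96 in the siL1 pair, then 83.4 and 85.4 in the siL2 pair. PFKM, the muscle-type subunit, stood at 137 and 147 CPM in the control pair, 113 and 112 in the siL1 pair, and 121 and 121 in the siL2 pair. PFKP rose by 0.31 with siL1 (adjusted p = 3.30e-05) and PFKL by 0.18 (adjusted p = 0.00735), and neither passed with siL2 (-0.058 and -0.034). PFKM fell by 0.33 with siL1 (SE 0.0452, adjusted p = 5.53e-05) while with siL2 its change was -0.24 (SE 0.0448, adjusted p = 8.22e-04). It was the sole member lower in all 4 knockdown libraries with a call in each comparison. PFKL lost its call with siL1 without control replicate 2 or siL1 replicate 2.

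PFKFB4 rose most of all members. This bifunctional kinase and phosphatase, which makes and removes fructose 2,6-bisphosphate, is known as a hypoxia-inducible isozyme. It measured 12.7 and 9.86 CPM in the control pair, 23.5 and 25.8 in the siL1 pair, and 19.4 and 17.0 in the siL2 pair. Neither siRNA group overlapped the control, and the siL1 libraries lay above the siL2 libraries. PFKFB4 was 2.19-fold higher with siL1 (log2 change 1.13, SE 0.117, adjusted p = 5.48e-06) and 1.61-fold higher with siL2 (0.69, SE 0.120, adjusted p = 4.57e-04). PFKFB3, the isozyme with the strongest kinase activity, stood at 85.7 and 88.3 CPM in the control pair, 92.7 and 100.3 in the siL1 pair, and 79.7 and 83.2 in the siL2 pair. It rose by 0.15 with siL1 (adjusted p = 0.0283) and differed by -0.099 with siL2 (adjusted p = 0.153). PFKFB2, the isozyme known from heart, stood at 19.8 and 19.1 CPM, then 21.1 and 20.3 in the siL1 pair, then 23.1 and 23.3 in the siL2 pair, a rise of 0.25 with siL2 (adjusted p = 0.0159). These smaller calls were lost when any of several libraries was left out, a step that also leaves fewer libraries for the test. That of PFKFB3 was lost without control replicate 1, control replicate 2 or siL1 replicate 2, and that of PFKFB2 without control replicate 2 or either siL2 library.

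**Figure D2:**
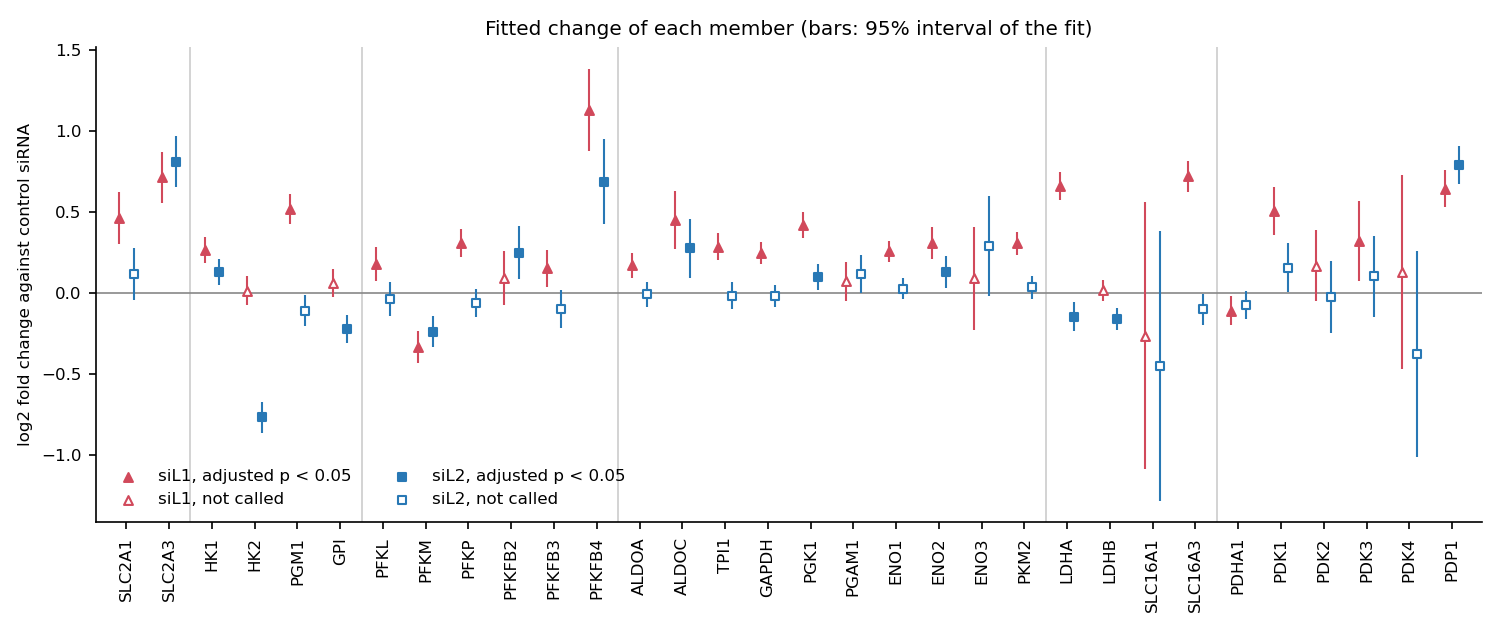
Fitted log2 fold change against the control siRNA (vertical axis) of each member, ordered by pathway step along the horizontal axis, for siL1 (red triangles) and siL2 (blue squares); bars are 95% intervals of the edgeR fit and filled symbols have an adjusted p below 0.05. PFKFB4 with siL1 is highest at 1.13, HK2 with siL2 is the lowest filled symbol at -0.77, and for LDHA and SLC16A3 the triangle and the square stand far apart.

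From aldolase to pyruvate kinase, 8 of 10 members rose with siL1 and 3 rose with siL2, and none fell with either. Of all genes tested 24.7% rose and 25.7% fell with siL1 and 22.6% rose and 23.3% fell with siL2, so the number that rose with siL2 was near that share. GAPDH, which makes the first NADH of the pathway, stood at 2519 and 2649 CPM in the control pair, 3036 and 3089 in the siL1 pair, and 2535 and 2582 in the siL2 pair. PKM2, the last enzyme, stood at 2139 and 2188 CPM, then 2604 and 2732 in the siL1 pair, then 2227 and 2224 in the siL2 pair. PGK1, the first ATP-making enzyme, stood at 533 and 553 CPM in the control pair, 712 and 739 in the siL1 pair, and 574 and 592 in the siL2 pair. In each, both siL1 libraries were above every other library. PGK1 rose by 0.42 with siL1 (SE 0.0368, adjusted p = 1.27e-06) and by 0.099 with siL2 (SE 0.0369, adjusted p = 0.0423), the latter lost without control replicate 1 or siL2 replicate 2. PKM2 rose by 0.31 with siL1 (adjusted p = 6.08e-06) and GAPDH by 0.25 (adjusted p = 3.23e-05), and with siL2 they differed by 0.037 and -0.018 with no call. The 95% interval of GAPDH with siL2 was -0.087 to 0.051.

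The less abundant isozymes ENO2 and ALDOC rose with each siRNA, and the abundant ENO1 and ALDOA rose with siL1. ENO1, the ubiquitous enolase, stood at 2191 and 2265 CPM in the control pair, 2618 and 2695 in the siL1 pair, and 2270.5 and 2290.2 in the siL2 pair, a rise of 0.26 with siL1 (adjusted p = 1.82e-05). ENO2, the neuronal isozyme that many tumours express, stood at 100.5 and 98.3 CPM in the control pair, 124 and 122 in the siL1 pair, and 113 and 105 in the siL2 pair. It rose by 0.31 (adjusted p = 1.18e-04) and by 0.13 (adjusted p = 0.0327). The muscle isozyme ENO3, at 4.76 to 6.24 CPM over the libraries, passed in neither comparison. ALDOA, the main aldolase, rose by 0.17 with siL1 (adjusted p = 0.00124) and differed by -0.0073 with siL2. ALDOC, the brain-type aldolase, stood at 17.7 and 19.2 CPM in the control pair, 26.5 and 23.8 in the siL1 pair, and 22.5 and 22.4 in the siL2 pair, rising by 0.45 (adjusted p = 5.90e-04) and by 0.28 (adjusted p = 0.0153). The siL2 calls of ALDOC and ENO2 were lost without control replicate 1 or siL2 replicate 1, and that of ENO2 also without control replicate 2.

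Of the remaining enzymes TPI1 rose with siL1, and PGAM1 passed in neither comparison. TPI1, which interconverts the products of aldolase, stood at 471 and 499.9 CPM in the control pair, 585 and 598 in the siL1 pair, and 476 and 488 in the siL2 pair, a rise of 0.29 with siL1 (adjusted p = 4.11e-05). PGAM1, which moves the phosphate of phosphoglycerate, stood at 60.4 and 65.1 CPM in the control pair, 66.4 and 65.4 in the siL1 pair, and 70.0 and 66.8 in the siL2 pair. Its differences of 0.073 (95% interval -0.046 to 0.19) and 0.12 (95% interval 0.0018 to 0.24, adjusted p = 0.0906) did not pass. Counts of these genes are uncertain in one respect. By name, 62 pseudogenes of GAPDH, 13 of PGAM1, 6 of LDHA and 5 of PKM2 are annotated in GENCODE v29, with further ones for 9 other members, and how reads shared with such copies were counted is not given in the sources used here. Exons of 22 of the 32 members also overlap another annotated gene, for 17 members one on the opposite strand (such as PFKM with SENP1 and PGM1 with ITGB3BP) and for 8 one on the same strand (such as PFKFB4 with UCN2 and PGK1 with ATP7A). No strand setting is given, and neither is how reads in shared exons were counted.

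Among the lactate genes, LDHA and SLC16A3 rose with siL1 and LDHA fell with siL2. LDHA, the lactate dehydrogenase subunit that favours making lactate, stood at 861 and 899.8 CPM in the control pair, 1336 and 1440.1 in the siL1 pair, and 789.9 and 808 in the siL2 pair. SLC16A3 (MCT4), the lactate exporter of glycolytic cells, stood at 165 and 169 CPM in the control pair, 267 and 281 in the siL1 pair, and 159.98 and 152 in the siL2 pair. In both genes the siL1 libraries were the highest and the siL2 libraries the lowest, with no overlap between groups. LDHA rose by 0.66 with siL1 (1.58-fold, SE 0.0408, adjusted p = 6.06e-08) but with siL2 it was lower (-0.14, SE 0.0409, adjusted p = 0.0112). The fall was lost without control replicate 2 or siL2 replicate 1. SLC16A3 rose by 0.72 with siL1 (1.65-fold, SE 0.0432, adjusted p = 4.86e-08), and its difference of -0.099 with siL2 did not pass (adjusted p = 0.0831).

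LDHB fell with siL2, and SLC16A1 passed in neither comparison against the control. LDHB, the subunit that favours the use of lactate, stood at 1312 and 1358 CPM in the control pair, 1343 and 1352 in the siL1 pair, and 1199 and 1199 in the siL2 pair. It differed by 0.019 with siL1 (95% interval -0.048 to 0.085, adjusted p = 0.641). With siL2 it fell by 0.16 (SE 0.031, adjusted p = 9.31e-04). SLC16A1 (MCT1), the other main lactate transporter, was barely detected, at 0.590 and 1.14 CPM in the control pair, 0.766 and 0.690 in the siL1 pair, and 0.785 and 0.487 in the siL2 pair, or 12 to 27 counts per library. The groups overlapped, and a change within the 95% interval (-1.08 to 0.56 with siL1) was not detectable at this depth.

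Of the genes that control pyruvate dehydrogenase, the phosphatase PDP1 rose with each siRNA and the kinase PDK1 with siL1. PDP1, the calcium-stimulated phosphatase that activates the complex, stood at 62.0 and 67.3 CPM in the control pair, 99.1 and 103 in the siL1 pair, and 109.9 and 115 in the siL2 pair. It rose by 0.65 with siL1 (1.56-fold, SE 0.0534, adjusted p = 7.62e-07) and by 0.79 with siL2 (1.73-fold, SE 0.0529, adjusted p = 1.22e-07). PDK1, a hypoxia-inducible kinase that inhibits the complex, stood at 30.5 and 29.5 CPM in the control pair, 40.7 and 44.1 in the siL1 pair, and 32.7 and 34.5 in the siL2 pair. All 4 siRNA libraries were above the control, but the rise of 0.51 passed with siL1 (SE 0.0684, adjusted p = 5.36e-05) and the difference of 0.16 with siL2 did not (adjusted p = 0.0802). PDHA1, the catalytic subunit that these enzymes act on, stood at 147 and 149.8 CPM, then 137 and 138 in the siL1 pair, then 141 and 143 in the siL2 pair. It fell by 0.11 with siL1 (adjusted p = 0.0417), a call that was lost whichever library was left out, and differed by -0.070 with siL2.

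Of the other PDK kinases PDK3 alone passed, with siL1. PDK3 stood at 18.01 and 15.1 CPM in the control pair, 21.7 and 19.6 in the siL1 pair, and 19.6 and 16.0 in the siL2 pair, and its rise of 0.32 with siL1 (adjusted p = 0.0314) was lost without control replicate 2 or siL1 replicate 1. PDK2 stood at 17.0 and 17.8 CPM, then 20.7 and 18.3 in the siL1 pair, then 18.8 and 15.6 in the siL2 pair, and did not pass. PDK4, a kinase known to be induced by fasting and fatty acids, stood at 0.710 to 1.11 CPM, or 19 to 27 counts per library, and passed in neither comparison (95% interval -0.47 to 0.73 with siL1 and -1.01 to 0.26 with siL2).

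Compared per kilobase of annotated exon, the members spanned a wide range of levels in the control. GAPDH led at 867 CPM per kb, followed by LDHB (447), ENO1 (422), ALDOA (267) and PKM2 (252), and the same genes made up the top 5 when the longest transcript gave the length. SLC16A1 (0.163) and PDK4 (0.223) were lowest. With the longest transcript as length, the levels of 30 members moved by more than their control SD. ENO1 held 94.4% and 94.7% of the enolase level in the control libraries, ALDOA 97.8% and 97.6% of the aldolase level, SLC2A1 91.1% and 91.6% of the listed glucose transporters, and SLC16A3 99.4% and 98.9% of the listed lactate transporters. These shares leave out transporters that are not members, such as SLC16A7 (22.5 and 20.7 CPM in the control libraries), SLC2A6 (17.8 and 19.4) and SLC2A12 (16.4 and 15.7). Of 9 steps with several isozymes, 8 kept their leading isozyme with the other length. The exception was the PDK kinases, where PDK3 and PDK2 were close.

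**Figure D3:**
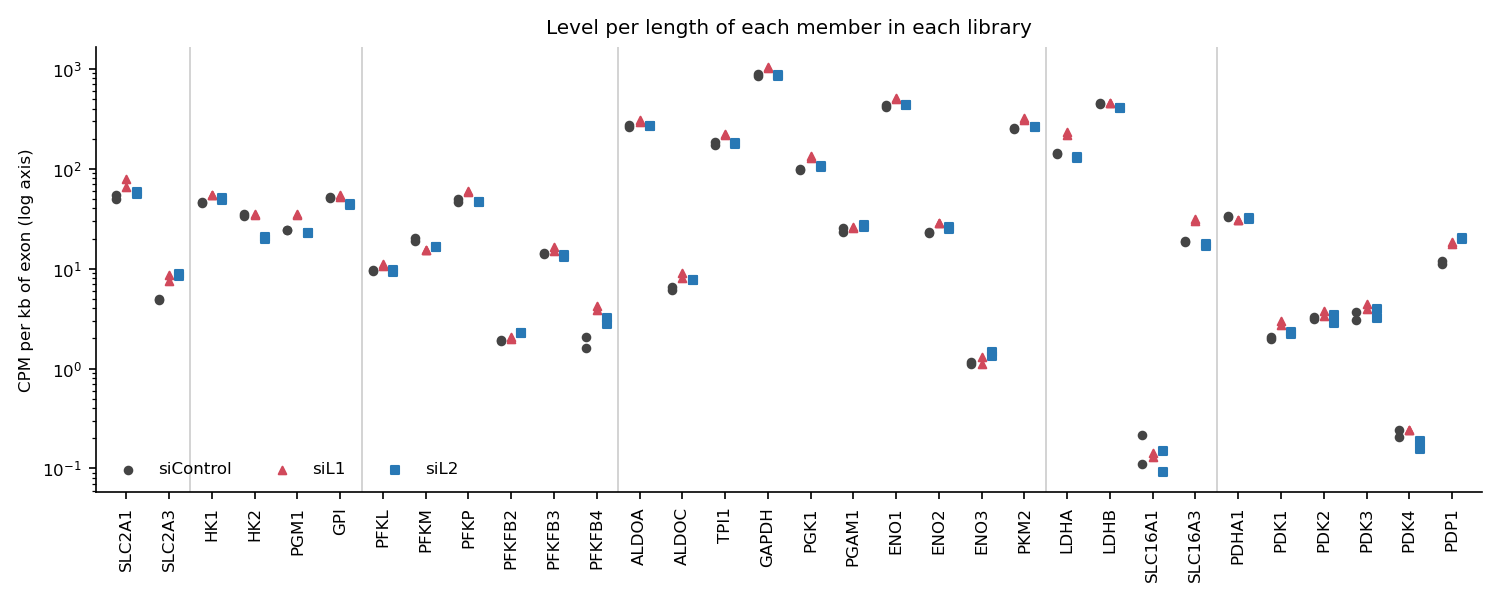
Level of each member in CPM per kilobase of annotated exon (vertical log axis) in each of the 6 libraries, ordered by pathway step along the horizontal axis with grey lines between steps; black circles are siControl, red triangles siL1 and blue squares siL2. GAPDH is highest near 867 CPM per kb in the control and SLC16A1 lowest near 0.163, and differences between genes are far larger than those between groups.

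Shares within a step do not depend on how libraries were scaled, and are given for lactate dehydrogenase and hexokinase. They do depend on the exon length used for each gene. With the longest transcript as length, control HK2 and HK1 averaged 36.1 and 71.6 CPM per kb, beside 34.3 and 45.4 with all annotated exons. For LDHA and LDHB the values were 364 and 868, beside 142 and 447. LDHA held 23.98% and 24.1% of the lactate dehydrogenase level in the control, 32.3% and 33.8% with siL1, and 24.04% and 24.5% with siL2. With siL2 both subunits were lower by similar amounts, so their balance stayed near that of the control. HK2 held 43.3% and 42.8% of the hexokinase level in the control, 38.6% and 39.0% with siL1, and 28.9% and 28.8% with siL2. Here the siL1 libraries, in which HK2 itself had not passed the test, were below the control while HK1 was higher.

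In total 10 log2 ratios of counts between members were computed per library, with no test beyond the values, since an exact permutation test of 2 libraries against 2 cannot give a p below 0.333. LDHA over LDHB averaged -0.60 ± 0.0096 in the control, 0.042 ± 0.069 with siL1 and -0.59 ± 0.023 with siL2 (SD, n = 2 each). HK2 over HK1 averaged -0.46 ± 0.020, then -0.71 ± 0.014 with siL1 and -1.36 ± 0.0057 with siL2 (SD, n = 2 each). The 3 groups were separate in the latter, with siL1 between the control and siL2. PFKP over PFKM averaged 0.71 ± 0.136 in the control, 1.35 ± 0.017 with siL1 and 0.88 ± 0.0085 with siL2 (SD, n = 2 each), with the siL1 libraries above all others. SLC2A3 over SLC2A1 averaged -3.02 ± 0.074, then -2.77 ± 0.065 and -2.33 ± 0.020 (SD, n = 2 each), with no overlap between groups. PDP1 over PDK1, the activating phosphatase against the inducible inhibiting kinase, averaged 1.11 ± 0.116 in the control, 1.25 ± 0.045 with siL1 and 1.74 ± 0.011 with siL2 (SD, n = 2 each). Both genes had risen with siL1, and the mean ratio was then 0.144 above the control, with both siL1 libraries above both control libraries. With siL2 the mean ratio was 0.63 above the control. PFKFB4 over PFKFB3 differed most from the control with siL1 among the 10 ratios, averaging -2.96 ± 0.292 in the control, -1.97 ± 0.014 with siL1 and -2.17 ± 0.178 with siL2 (SD, n = 2 each), with no overlap between groups. PFKL over PFKM was higher than in the control by 0.51 with siL1 and by 0.20 with siL2, and ALDOC over ALDOA by 0.28 and 0.29, with all siRNA libraries above the control in both. ENO2 over ENO1 differed by 0.050 and 0.102 and PDK1 over PDK2 by 0.33 and 0.19, with siL1 overlapping the control in the former and siL2 in the latter.

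**Figure D4:**
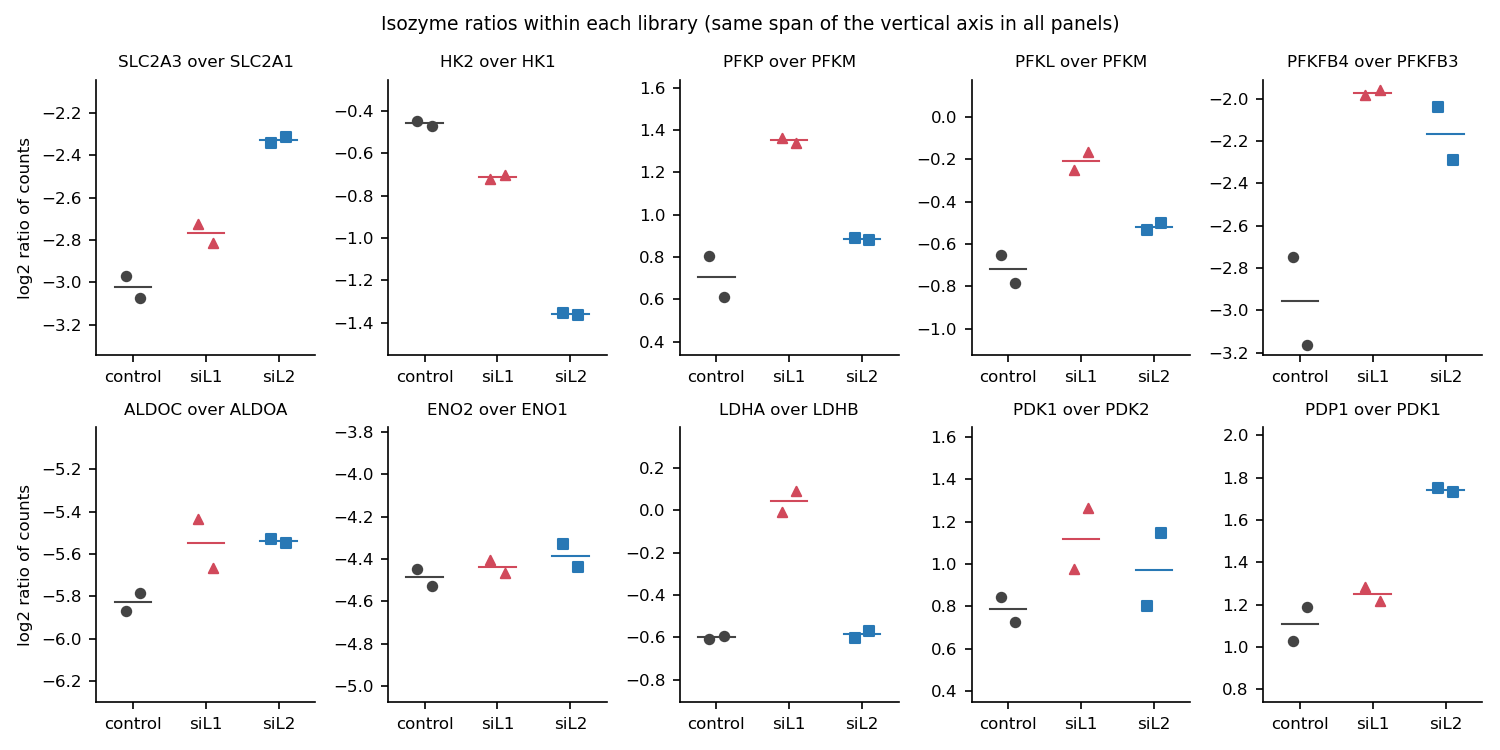
Log2 ratio of the counts of 2 members (vertical axis, the same span in all 10 panels) in each library of the control, siL1 and siL2 (horizontal axis); points are libraries and lines are group means. LDHA over LDHB is near -0.60 in the control and with siL2 and near 0.042 with siL1, while HK2 over HK1 is lowest with siL2 at -1.36.

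The siRNAs were compared with each other to ask where knockdowns of the same target differed. KDM1A itself was lower with siL2 than with siL1 (-0.66, adjusted p = 4.36e-06). Of the 32 members, 20 (62.5%) were lower with siL2 than with siL1 and 1 (3.12%) was higher, beside 23.7% and 23.2% of all genes tested. The median difference was -0.22 over the members and 0.00019 over all genes. SLC16A3 (-0.82, SE 0.0432, adjusted p = 2.15e-08), LDHA (-0.81, SE 0.0409, adjusted p = 1.64e-08), HK2 (-0.78, SE 0.0430, adjusted p = 2.88e-08) and PGM1 (-0.63, SE 0.0426, adjusted p = 1.71e-07) differed most. From aldolase to pyruvate kinase 7 of 10 members were lower with siL2, among them PGK1 (-0.32), TPI1 (-0.30), PKM2 (-0.27) and GAPDH (-0.27). PDP1 was the single member that was higher with siL2 (0.15, adjusted p = 0.0319), and this was lost without siL1 replicate 1 or siL2 replicate 2. PFKM, which fell with each siRNA, differed by 0.096 between them (95% interval -0.0024 to 0.19, adjusted p = 0.102).

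The authors' deposited table gave fewer calls of members. Calls of all genes in that table were not counted, so its member counts are set only beside those of the edgeR fit. At an adjusted p below 0.05 it listed 19 members as higher and 1, PFKM, as lower with siL1, and 3 as higher and 5 as lower with siL2. The 5 were HK2, GPI, PFKM, LDHA and LDHB, as in the edgeR fit. The 3 were SLC2A3, PFKFB4 and PDP1, while HK1, PFKFB2, ALDOC, PGK1 and ENO2, which rose with siL2 in the edgeR fit, did not pass there. In the authors' deposited table PFKFB4 had a fold change of 2.19 with siL1 and 1.61 with siL2, LDHA 1.59 and 0.905, and HK2 1.01 and 0.588.

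Other genes of the same and neighbouring pathways were counted in the same way, beside the 24.7% of all genes tested that rose and 25.7% that fell with siL1, and 22.6% and 23.3% with siL2. Of 31 further isozymes and partners of the same steps 19 were tested, and 6 rose (31.6%) and 2 fell (10.5%) with siL1 and 5 rose (26.3%) and 3 fell (15.8%) with siL2 (medians 0.098 and 0.15). The shares that rose were near those of all genes. The glucose transporter SLC2A6 rose with each siRNA (0.69 and 0.58), and so did EMB, a chaperone of lactate transporters (0.55 and 0.29). The D-lactate dehydrogenase LDHD also rose with each (0.55 and 1.11), and the sperm-type GAPDHS fell with each (-1.56 and -0.54). SLC2A12 rose by 0.58 with siL2 and did not pass with siL1. Of 10 genes of the pyruvate dehydrogenase complex and mitochondrial pyruvate entry, 2 rose (20%) and 4 fell (40%) with siL1, and 3 rose (30%) and 4 fell (40%) with siL2. DLAT, the acetyltransferase core of the complex, fell with each (-0.35 and -0.20), pyruvate carboxylase PC rose with each (0.29 and 0.50), DLD, the dihydrolipoamide dehydrogenase, fell with siL1 (-0.21), and the pyruvate carrier subunit MPC1 fell with siL2 (-0.50). The median change over this list was -0.21 with siL1 and -0.12 with siL2.

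Of 10 gluconeogenesis and fructose bisphosphatase genes 6 were tested, and 2 rose (33.3%) and 1 fell (16.7%) with siL1 and 2 rose (33.3%) and 2 fell (33.3%) with siL2 (medians 0.081 and -0.16). PCK2, the mitochondrial PEP carboxykinase, fell with each siRNA (-0.58 and -0.26). Of 11 pentose phosphate genes 10 were tested, with 2 higher (20%) and 5 lower (50%) with siL1 and 2 higher (20%) and 4 lower (40%) with siL2 (medians -0.092 and -0.0053). RPIA, the ribose 5-phosphate isomerase, fell with each (-0.46 and -0.58), and so did RPE (-0.23 and -0.86). H6PD, an enzyme of the endoplasmic reticulum, rose with each (0.36 and 0.54). In the glycogen, hexosamine and serine branches, 7 of 16 tested genes rose (43.8%) and 4 fell (25%) with siL1, and 4 rose (25%) and 4 fell (25%) with siL2 (medians -5.1e-06 and 0.030). The shares with siL2 were near those of all genes. Like PGM1, its relatives PGM2L1 (1.13) and PGM2 (0.45) rose with siL1, and unlike it they also rose with siL2 (0.82 and 0.32).

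Of 26 tested regulators of glycolytic genes, 5 rose (19.2%) and 7 fell (26.9%) with siL1 and 2 rose (7.69%) and 9 fell (34.6%) with siL2 (medians -0.024 and -0.039). With siL1 these shares were near those of all genes, 24.7% and 25.7%, and with siL2 all genes gave 22.6% and 23.3%. HIF1A, the hypoxia-inducible factor subunit that is controlled mainly at the protein level, stood at 331 to 369.8 CPM in all libraries and passed in neither comparison (0.046 and 0.0071). EGLN3, a HIF target and prolyl hydroxylase, stood at 3.86 and 3.13 CPM in the control pair, 9.40 and 9.61 in the siL1 pair, and 4.45 and 4.71 in the siL2 pair, a rise of 1.45 with siL1 (adjusted p = 3.07e-06). MYC, which drives LDHA and other glycolytic genes in many cells, fell with each siRNA (-0.44 and -0.70). The kinase AKT1 rose with each (0.67 and 0.45), and TXNIP, which restrains glucose uptake, fell with each (-0.54 and -0.27). PRKAA1, a catalytic subunit of AMPK, also fell with each (-0.34 and -0.67). Their part in the members' changes was not tested.

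**Figure D5:**
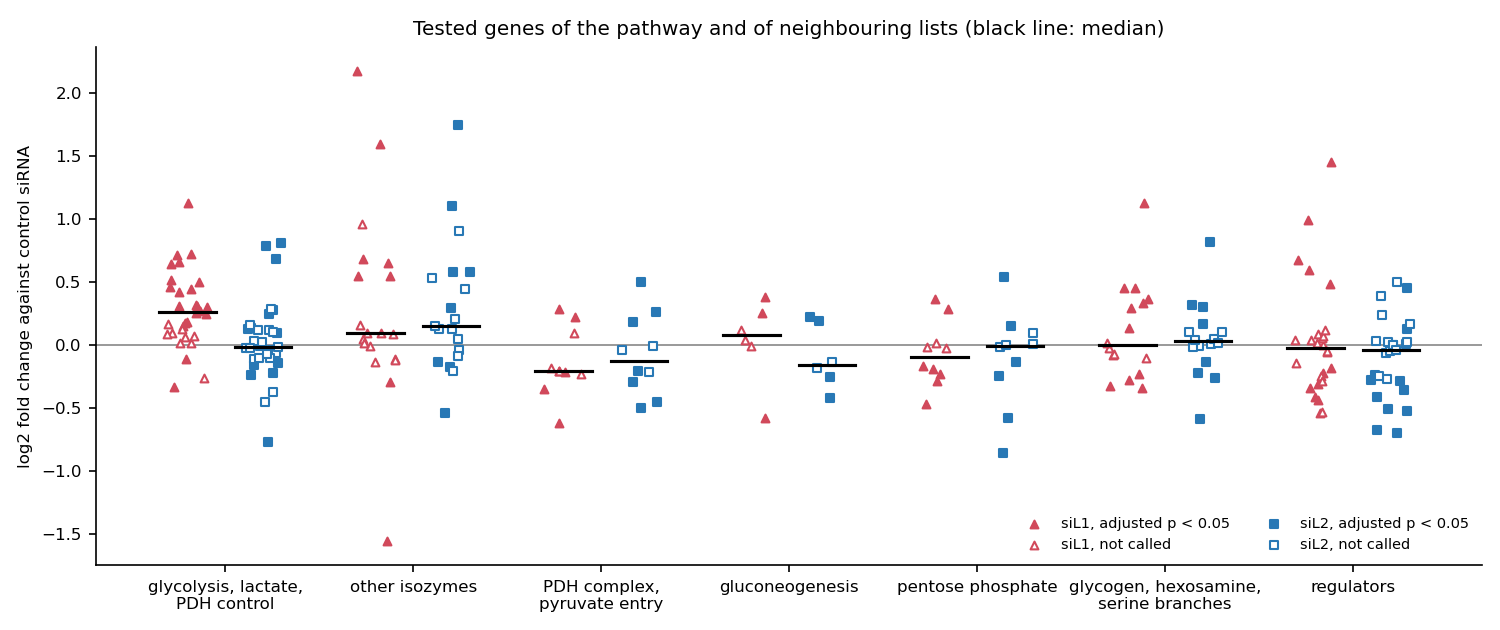
Fitted log2 fold change against the control siRNA (vertical axis) of every tested gene of the pathway and of 6 neighbouring lists (horizontal axis), for siL1 (red triangles) and siL2 (blue squares); filled symbols have an adjusted p below 0.05 and black lines are medians. The members' median is 0.26 with siL1 and -0.011 with siL2, and the medians of the other lists with siL1 lie between -0.21 and 0.098.

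Because 3' UTR heptamers had been picked from changes in these libraries in an earlier analysis, the members that hold them are given only as a description. TACATTT or ACATTTA, which share ACATTT, were present in the longest annotated 3' UTR of HK2, PDK1, PDK4 and PDP1, or 12.5% of members beside 35.3% of 11382 tested genes with a 3' UTR of at least 50 bases. Of these, PDK1 rose with siL1, PDP1 rose with each siRNA, HK2 fell with siL2 and PDK4 passed in neither comparison. ACAGAGC was present in PGK1, PGAM1, PDK1, PDK3 and PDHA1 (15.6% beside 18% of genes), and GTTACAA in SLC16A3, PDK1 and PDK4 (9.38% beside 9.56%). The members' 3' UTRs had a median of 1013 bases, and those of the tested genes 1422. SLC16A3, LDHA and PGM1, whose changes differed most between the siRNAs besides HK2, held neither TACATTT nor ACATTTA. Most members and most tested genes held neither, so nothing about these genes follows from it. The siRNA sequences were not known, and no cause was tested.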

How the data were processed

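RNA-seq libraries were made from total RNA with standard Illumina procedures, per the labels' protocols. Per the submitters' processing notes, TopHat 1.3.3, HTSeq and DESeq were used, with genome build hg19; settings, annotation and strand setting are not given in the sources used here. The authors deposited raw counts per gene symbol, their fold changes as linear ratios over the control, and their adjusted p-values.

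CPM were computed from the deposited counts and library totals. Counts were tested with edgeR 4.0.16 in R 4.3.3 (filterByExpr by group, TMM scaling, all 6 libraries in a glmQLFit model of group alone, 3 residual degrees of freedom, two-sided glmQLFTest, Benjamini-Hochberg adjustment over 13322 genes; 10046 were left out). SEs are of the log2 fold change, SDs are over 2 libraries. Alternatives were other scalings, filters, limma-voom 3.58.1, DESeq2 1.42.0, a replicate block, fits of only the groups compared, and leaving out each library. Replicates of each group differed by more than sampling noise (chi-square per gene 3.13 to 3.37). Floors of 3 counts cover counting error only.

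Exon lengths, overlaps, pseudogene names and 3' UTRs came from GENCODE v29 (GRCh38) by symbol, and promoters from RefSeq (GRCh38.p14), while counts were made on hg19; the promoter windows alone are given coordinates. Python 3.11.15 was used.

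Named genes were all 32 members, KDM1A, and from each other list up to 3 per comparison with the smallest p among those called. Regulators, and the transporter SLC16A7, given beside a result were named as well. The members and lists were chosen with earlier results of these data known. Some genes of the lists are not reported here.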

Additional observations from a re-analysis of the deposited data

How the results depend on the processing

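Among the counts of members called, the number that fell with siL1 (2) was 1 with DESeq2 size factors, with upper quartile scaling, with the DESeq2 Wald test, with only the 2 groups compared in the fit, and without any 1 of the 6 libraries (range 1 to 1), because PDHA1 was lost. The number that rose with siL2 (8) was 4 with the DESeq2 Wald test, which lost PFKFB2, ALDOC, PGK1 and ENO2, and 4 to 8 without single libraries. The number that was higher with siL2 than with siL1 (1) was 0 with the DESeq2 Wald test and 0 to 1 without single libraries, PDP1 being lost. No call of a member changed sign under any alternative, and outside the block the other counts stayed within 1.5 times. For the isozyme ratios, leaving out 1 library of a pair cannot move the difference beyond the pooled SD by construction, so it shows nothing about their stability. The DESeq2 Wald test also lost PFKFB3 and PDK3 with siL1. Over all members and alternatives, 19 calls with siL1, 18 with siL2 and 6 between the siRNAs were lost, counting each member once per alternative, and 1, 6 and 7 were gained. The titles number the replicates, but the labels do not say that a number marks a shared batch, and each comparison has only 2 pairs; same-numbered libraries deviated together weakly (correlation of replicate differences 0.141 for control and siL1, 0.198 for control and siL2, 0.133 for siL1 and siL2). With the replicate block, 22 members rose and 2 fell with siL1, 11 rose and 8 fell with siL2, and 3 were higher and 23 lower with siL2 than with siL1. Of all genes called with the block, 48.2% were higher with siL1, 48.9% with siL2 and 49.8% with siL2 against siL1. The share of all genes called under each alternative is not given here. The members' counts under the alternatives therefore do not show a change particular to the members. The block added SLC2A1, PFKFB3, PGAM1, SLC16A3, PDK1 and PGM1 with siL2, GPI with siL1, and PFKM, PFKFB2, ALDOC, PDK2 and PDK3 between the siRNAs, and lost none. Of the members, SLC16A1 and PDK4, at 12 to 27 counts per library, had the largest SEs against the control.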

Other observations

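PSAT1, the serine synthesis aminotransferase, had the pattern of LDHA. It measured 113 and 119 CPM in the control pair, 159.7 and 158 in the siL1 pair, and 104 and 109 in the siL2 pair, rising by 0.46 with siL1 (adjusted p = 4.59e-06) and changing by -0.13 with siL2 (adjusted p = 0.0389). GNPNAT1, of hexosamine synthesis, had that of HK2, at 154 and 155 CPM in the control pair, 155 and 157 in the siL1 pair, and 107 and 99.0 in the siL2 pair (-0.59, adjusted p = 4.41e-07). The next genes were singled out after their values were seen. HKDC1, a low-level hexokinase relative, stood at 0.907 and 0.677 CPM in the control pair, 2.17 and 2.60 in the siL1 pair, and 1.12 and 1.18 in the siL2 pair, and rose by 1.60 with siL1 (adjusted p = 2.22e-04). EPAS1, which encodes HIF2A, stood at 20.3 and 21.0 CPM in the control pair, 30.2 and 31.97 in the siL1 pair, and 24.4 and 22.1 in the siL2 pair. It rose by 0.59 with siL1 (adjusted p = 3.89e-05), and its difference of 0.17 with siL2 did not pass (adjusted p = 0.102). BSG, the chaperone that carries lactate transporters to the cell surface, differed by -0.13 with siL2 (adjusted p = 0.0128), a fall, and differed by 0.019 with siL1.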
